A study of Mus musculus with 6 samples.

Results

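The young Tf and Gf subfamilies of the mouse LINE1 retrotransposon are represented by 6 entries in a table of read counts for 363 repeat families. These entries, chosen by name, are L1MdTf_I, L1MdTf_II, L1MdTf_III, L1MdGf_I, L1MdGf_II and L1Md_Gf_5end. RNA was sequenced from 1 testis of each of 3 wild-type and 3 homozygous Spocd1ΔSPIN1 mice at postnatal day 20, all on a mixed B6CBAF1/Crl and C57BL/6N background. The Spocd1ΔSPIN1 allele carries alanine substitutions designed to disrupt the binding of SPOCD1 to the chromatin reader SPIN1, and it was established from 1 founder. Total RNA from which ribosomal RNA had been removed was made into stranded libraries. The comparison asks how transcripts of these elements differ between testes with and without the SPOCD1-SPIN1 interaction.

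LINE1 elements copy themselves through an RNA that is transcribed from a promoter in the element's own 5′ untranslated region, which in mice is built of repeated monomers, and that encodes the proteins ORF1p and ORF2p. Tf, Gf and A are the young mouse LINE1 groups that still hold active copies, and they are told apart largely by their monomers. In fetal male germ cells the nuclear piRNA pathway, in which SPOCD1 acts together with the Argonaute protein MIWI2, directs DNA methylation to the promoters of young transposons, and loss of this pathway is known to arrest male germ cells in meiosis.

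The sequences that stand for the numbered entries have lengths of 7398 bases for L1MdTf_I, 7115 for L1MdTf_II, 6670 for L1MdTf_III, 7085 for L1MdGf_I and 6342 for L1MdGf_II, which is the scale of a whole element. L1Md_Gf_5end has 1142 bases and, by its name, stands for the start of a Gf element. The table gives no genomic positions, so single copies cannot be followed. The rule for reads that match several families is not given in the sources used here, so reads could be split between entries of similar sequence, and values for single entries are uncertain to that extent. The table holds no genes, so the genotype, markers of testis cell types and the total number of reads could not be checked from it. In RNA of a whole testis, more cells of a type that holds a transcript and more transcript per cell cannot be told apart.

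Summed over all families, the deposited counts were 416517, 369598 and 499166 in wild-type replicates 1, 2 and 3, and 842018, 1013224 and 918487 in Spocd1ΔSPIN1 replicates 1, 2 and 3. Levels are given as CPM, a count relative to the size of its library, with library sizes scaled by the TMM method (trimmed mean of M-values), which takes most families to be unchanged, and levels of different entries are compared per kb of sequence length. LINE1 families are here the 40 tested families with names starting with L1, so families named LX were counted among the other repeats. Across these 40 families, the SD of the log2 difference in CPM between libraries was 0.078 to 0.099 for the wild-type pairs. It was 0.15 between Spocd1ΔSPIN1 replicates 2 and 3. Between Spocd1ΔSPIN1 replicate 1 and replicates 2 and 3 it was 0.57 and 0.53. Spocd1ΔSPIN1 replicate 1 therefore stood apart, and results are also given without it. What sets this library apart was not tested.

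L1MdTf_I had a level of 1647, 1689 and 1735 CPM per kb in the libraries of wild-type mice and 24145, 16461 and 19597 in the Spocd1ΔSPIN1 libraries, in the order of the replicates. L1MdTf_II had 1623, 1658 and 1746 CPM per kb in wild type and 24271, 16716 and 20001 in Spocd1ΔSPIN1 mice. In both entries every Spocd1ΔSPIN1 library was far above every wild-type library, with replicate 1 the highest and replicate 2 the lowest of the mutants. L1MdTf_III had 2094, 2137 and 2128 CPM per kb in wild type and 7830.04, 5189.6 and 5710.45 in Spocd1ΔSPIN1 mice. It was the most abundant of the 6 entries per kb in each wild-type library, its groups did not overlap, and replicate 1 was again the highest mutant.

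L1MdGf_I had 1433, 1414 and 1413 CPM per kb in the libraries of wild-type mice and 2895, 3529.5 and 3592 in the Spocd1ΔSPIN1 libraries. L1MdGf_II had 1475, 1476 and 1524 CPM per kb in wild type and 3647, 5205 and 5538 in Spocd1ΔSPIN1 mice. The groups did not overlap in either entry, and replicate 1 was here the lowest of the mutants, opposite to the Tf entries. L1Md_Gf_5end had 687, 702 and 747 CPM per kb in wild type and 13038, 8271 and 10206 in Spocd1ΔSPIN1 mice. The groups were fully separate, and the order of the mutant libraries was that of the Tf entries, with replicate 1 the highest, and not that of the numbered Gf entries.

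**Figure D1:**
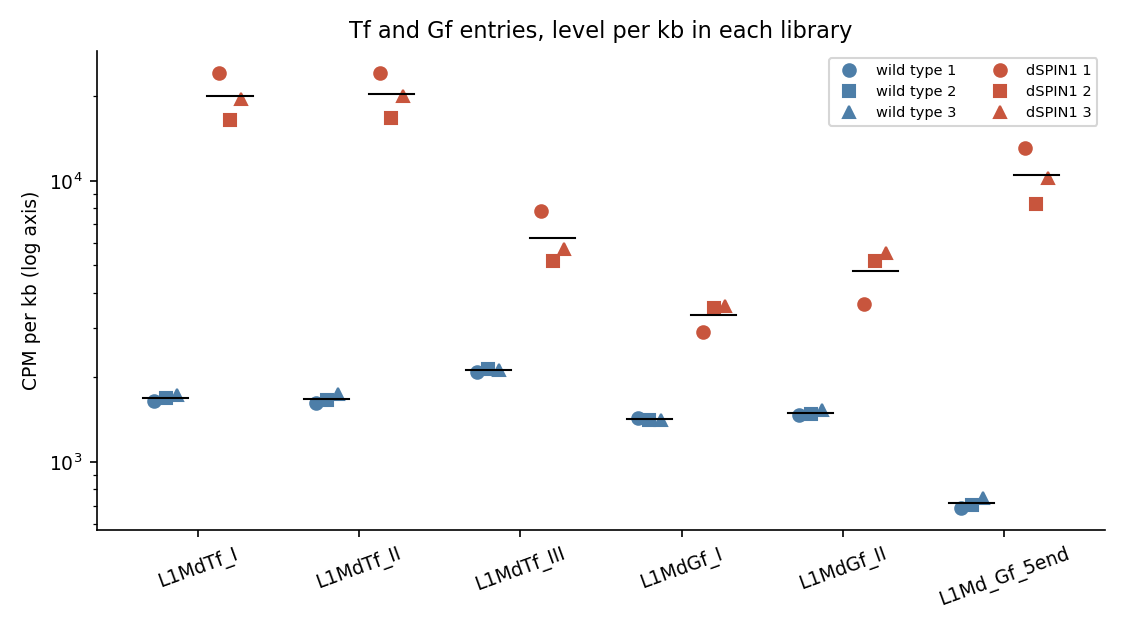
Level of each entry in CPM per kb (log axis) in the 3 wild-type (blue) and 3 Spocd1ΔSPIN1 (red, marked dSPIN1) libraries, with replicates as symbols and group means as lines. L1Md_Gf_5end lies below the other entries in wild type, at 687 to 747, and above L1MdTf_III and the numbered Gf entries in the mutants, at 8271 to 13038.

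In wild type the order of the mean levels per kb was L1MdTf_III (2119.9 ± 22.7, SD, n = 3), L1MdTf_I (1690.2 ± 44.2), L1MdTf_II (1676 ± 63.4), L1MdGf_II (1492 ± 28.3), L1MdGf_I (1419.9 ± 11.4) and L1Md_Gf_5end (712 ± 31.5). Of the neighbours in this order, L1MdTf_I and L1MdTf_II differed by less than their spread. In Spocd1ΔSPIN1 mice the order was L1MdTf_II (20329 ± 3788), L1MdTf_I (20067.5 ± 3864), L1Md_Gf_5end (10505 ± 2397), L1MdTf_III (6243 ± 1399), L1MdGf_II (4797 ± 1009) and L1MdGf_I (3339 ± 386). L1MdTf_I and L1MdTf_II again differed by less than their spread, and the ranges of L1MdTf_III and L1MdGf_II overlapped. In Spocd1ΔSPIN1 replicate 2 the level of L1MdGf_II (5205 CPM per kb) was marginally above that of L1MdTf_III (5189.6). Among the 292 families tested, the mean level per kb of L1MdTf_I ranked 47th from the top in wild type and 11th in Spocd1ΔSPIN1 mice, and that of L1Md_Gf_5end moved from rank 96 to rank 16. The coefficient of variation between mice was 0.80% to 4.43% for the 6 entries in wild type and 11.6% to 22.8% in Spocd1ΔSPIN1 mice. The lowest count of any entry was 405, for L1Md_Gf_5end in wild-type replicate 2, where counting error alone is 4.97%.

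All 6 of the 6 entries passed the filter on low counts and rose in Spocd1ΔSPIN1 mice by edgeR's quasi-likelihood test at a Bonferroni-adjusted p under 0.05, beside 16 of the 292 families tested, or 5.48%. In all 6 entries each mutant CPM value also lay above each wild-type value, which held for 61 of the 292 families, or 20.9%. By log2 fold change, L1Md_Gf_5end, L1MdTf_II and L1MdTf_I ranked 1, 2 and 3 of the 292 families, and L1MdGf_II, L1MdTf_III and L1MdGf_I ranked 11, 13 and 14. The log2 fold changes fell into a high set, 3.88 (SE 0.18) for L1Md_Gf_5end, 3.60 (SE 0.17) for L1MdTf_II and 3.57 (SE 0.17) for L1MdTf_I, and a low set, 1.69 (SE 0.16) for L1MdGf_II, 1.56 (SE 0.16) for L1MdTf_III and 1.23 (SE 0.11) for L1MdGf_I. Adjusted p-values from edgeR were 8.44e-06 to 1.54e-05 in the high set and 0.00127 to 0.00406 in the low set. The median over the 6 entries was 2.63, beside −0.039 over all 292 families.

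**Figure D2:**
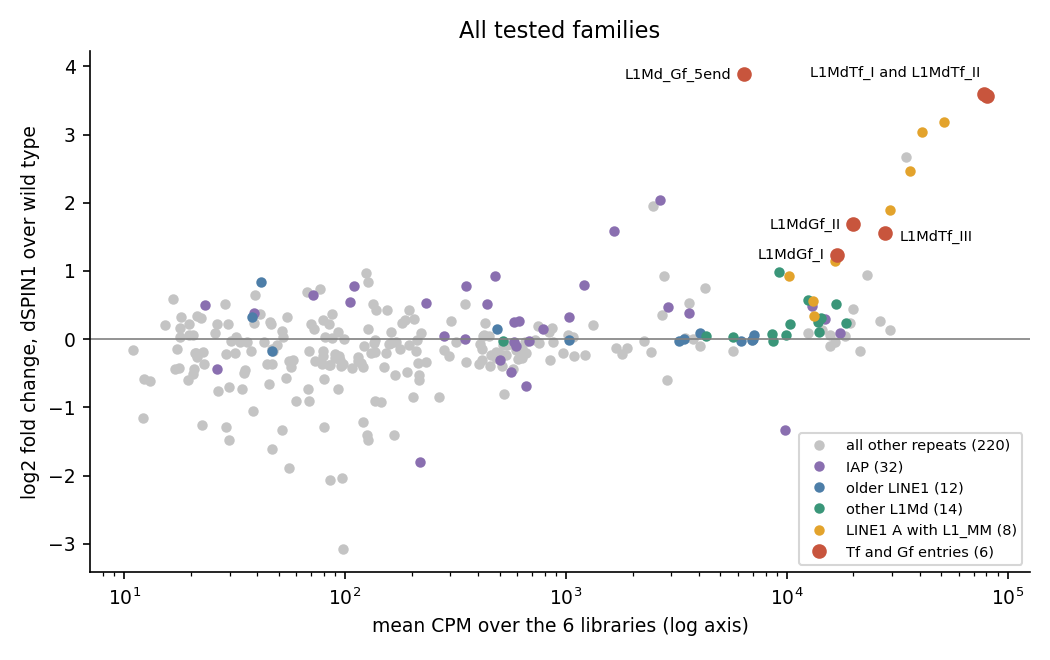
Log2 fold change of CPM (Spocd1ΔSPIN1, marked dSPIN1, over wild type) against the mean CPM of the 6 libraries (log axis) for the 292 tested families, 1 point per family, coloured by group. The 6 Tf and Gf entries lie between 1.23 and 3.88 with TMM, and between 0.21 and 2.87 when libraries are scaled by total counts, which moves the median of all points from −0.039 to −1.05.

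Scaling by total counts in place of TMM moved every family down by between 0.99 and 1.04 on the log2 scale and the median over all families to −1.05. The split of calls over all families then changed from 16 higher and 8 lower to 4 higher, or 1.37% of 292, and 168 lower, none of them a Tf or Gf entry. Besides 3 of the entries, the family still called higher was MMERVK10C, an endogenous retrovirus. The 6 entries kept log2 fold changes above 0. L1Md_Gf_5end, L1MdTf_II and L1MdTf_I passed the threshold with values of 2.87, 2.59 and 2.56, whereas L1MdGf_II at 0.66, L1MdTf_III at 0.55 and L1MdGf_I at 0.21 did not, with adjusted p-values in edgeR of 0.363, 1 and 1. Which scaling is nearer to the RNA content of the testes was not tested.

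The size of the rise in each mouse separated the entries further. Relative to the wild-type mean CPM, L1MdTf_I was 14.3-fold, 9.74-fold and 11.6-fold higher in Spocd1ΔSPIN1 replicates 1, 2 and 3. L1Md_Gf_5end was 18.3-fold, 11.6-fold and 14.3-fold higher. L1MdTf_III was 3.69-fold, 2.45-fold and 2.69-fold higher. Thus these entries, from the largest rise to one of the smaller, had their highest fold in replicate 1 and their lowest in replicate 2. L1MdGf_I was 2.04-fold, 2.49-fold and 2.53-fold higher in the same libraries. L1MdGf_II was 2.45-fold, 3.49-fold and 3.71-fold higher. For the numbered Gf entries the fold was lowest in replicate 1 and close to equal in replicates 2 and 3.

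**Figure D3:**
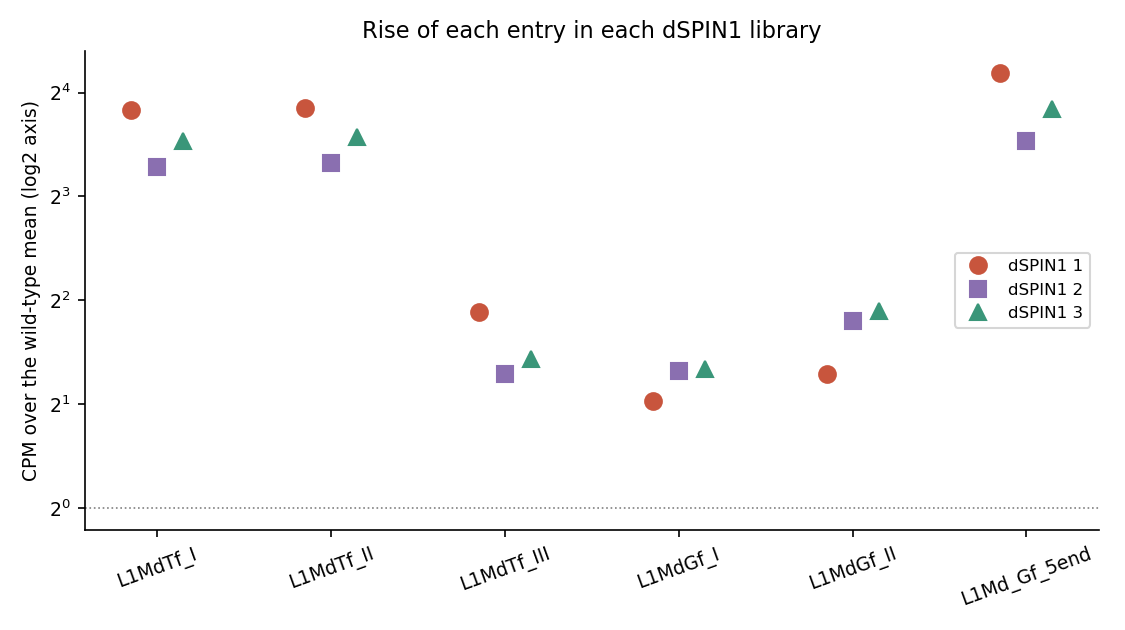
CPM of each entry in each Spocd1ΔSPIN1 library (marked dSPIN1, 1 symbol per mouse) over the wild-type mean, on a log2 axis, with a dotted line at a ratio of 1. Replicate 1 is the highest mutant for the Tf entries and L1Md_Gf_5end (18.3-fold for the latter) and the lowest for L1MdGf_I (2.04-fold) and L1MdGf_II (2.45-fold).

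Without Spocd1ΔSPIN1 replicate 1, all 6 entries still passed the threshold in edgeR, beside 22 of 297 families called higher, or 7.41%. The log2 fold changes without it were 3.68 for L1Md_Gf_5end, 3.44 for L1MdTf_II, 3.40 for L1MdTf_I, 1.84 for L1MdGf_II, 1.35 for L1MdTf_III and 1.32 for L1MdGf_I. The Tf entries and the Gf 5′ end entry were thus lower, and the numbered Gf entries higher, than with all mice. Without wild-type replicate 1, L1MdTf_III no longer passed, with a log2 fold change of 1.55 and an adjusted p in edgeR of 0.0611, and the other 5 entries passed, beside 7 of 311 families called higher, or 2.25%.

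Ratios of counts within a library do not depend on the scaling between libraries and were used to test whether entries differed in their response. The summed counts of the 3 Tf entries were 1.93, 1.99 and 2.01 times those of L1MdGf_I and L1MdGf_II in the libraries of wild-type mice and 9.25, 4.75 and 5.37 times in the Spocd1ΔSPIN1 libraries. Every mutant ratio was above every wild-type ratio, and replicate 1 lay well above the other mutants. The log2 ratio was 0.98 ± 0.028 in wild type and 2.63 ± 0.51 in Spocd1ΔSPIN1 mice (SD, n = 3 each), a difference of 1.64 (p = 0.1 in the exact permutation test, two-sided, the smallest p that 3 against 3 allows). Without Spocd1ΔSPIN1 replicate 1 the difference was 1.35. In all, 10 shares and ratios were tested in this way, and a raw p of 0.1 corresponds to 0.111 after Benjamini-Hochberg adjustment over the 10 permutation tests, so none could pass 0.05.

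Among the numbered Tf entries, L1MdTf_I and L1MdTf_II moved as a unit and L1MdTf_III did not move with them. The count of L1MdTf_I was 1.06, 1.06 and 1.03 times that of L1MdTf_II in the libraries of wild-type mice and 1.03, 1.02 and 1.02 times in the Spocd1ΔSPIN1 libraries. These values overlap between the groups (log2 difference −0.032, p = 0.2 in the exact permutation test, two-sided), and the pair cannot be taken as 2 independent measurements. The count of L1MdTf_III was 1.15, 1.14 and 1.11 times that of L1MdTf_I in wild type and 0.292, 0.284 and 0.263 times in Spocd1ΔSPIN1 mice. L1MdTf_III thus gave more counts than L1MdTf_I in every wild-type library and fewer in every mutant, including replicate 1, with log2 ratios of 0.18 ± 0.028 and −1.84 ± 0.080 (SD, n = 3 each). The difference was −2.02 with all mice (p = 0.1 in the exact permutation test, two-sided) and −2.05 without Spocd1ΔSPIN1 replicate 1.

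The numbered Gf entries also differed from each other, by less. The count of L1MdGf_I was 1.09, 1.07 and 1.04 times that of L1MdGf_II in wild type and 0.887, 0.758 and 0.725 times in Spocd1ΔSPIN1 mice. L1MdGf_I had the larger count in every wild-type library and the smaller count in every mutant. Per kb, however, L1MdGf_I was below L1MdGf_II in every library of both groups, so the order per kb did not change. The log2 ratio was 0.089 ± 0.035 in wild type and −0.35 ± 0.15 in Spocd1ΔSPIN1 mice (SD, n = 3 each), a difference of −0.43 (p = 0.1 in the exact permutation test, two-sided) that was −0.52 without Spocd1ΔSPIN1 replicate 1.

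Per base of length, L1Md_Gf_5end had 0.473, 0.486 and 0.510 times the counts of the numbered Gf entries (their summed counts over their summed lengths) in the libraries of wild-type mice and 4.01, 1.91 and 2.26 times in the Spocd1ΔSPIN1 libraries. The 5′ end entry was therefore below the full-length Gf entries in every wild-type library and above them in every mutant, most in replicate 1. The log2 ratio was −1.03 ± 0.055 in wild type and 1.37 ± 0.56 in Spocd1ΔSPIN1 mice (SD, n = 3 each), a difference of 2.404 (p = 0.1 in the exact permutation test, two-sided). Without Spocd1ΔSPIN1 replicate 1 it was 2.09. Set against L1MdTf_I instead, also per base, the same entry had ratios of 0.417, 0.415 and 0.431 in wild type and 0.540, 0.502 and 0.521 in Spocd1ΔSPIN1 mice. This ratio was higher in every mutant than in any wild-type library, but it differed little between the mutants, replicate 1 included. The log2 ratio was −1.25 ± 0.029 in wild type and −0.94 ± 0.052 in Spocd1ΔSPIN1 mice (SD, n = 3 each), a difference of 0.31 (p = 0.1 in the exact permutation test, two-sided), and 0.28 without Spocd1ΔSPIN1 replicate 1.

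**Figure D4:**
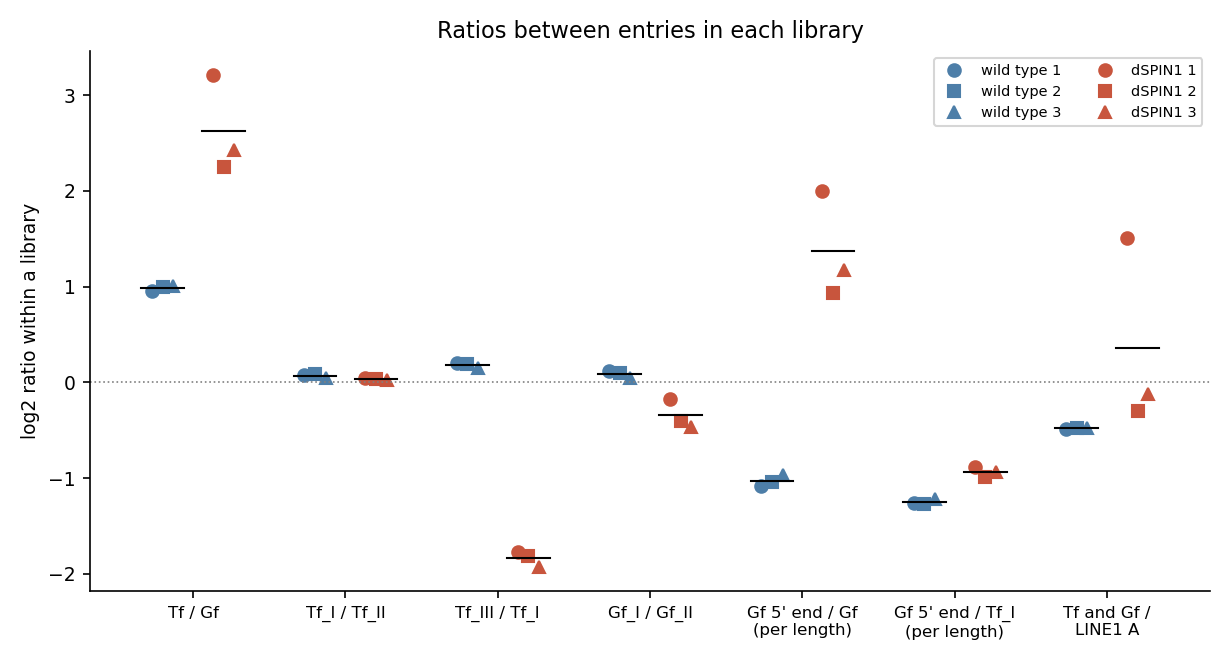
Log2 ratios of counts within each wild-type (blue) and Spocd1ΔSPIN1 (red, marked dSPIN1) library, with replicates as symbols and group means as lines; the ratios with the Gf 5′ end entry are per length. The ratio of the Gf 5′ end entry to the numbered Gf entries spans 0.94 to 2.004 among the mutants, and its ratio to L1MdTf_I only −0.99 to −0.89.

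The gain over wild type, taken as the CPM per kb of a mutant library less the wild-type mean, gives the same entries on a scale of absolute difference and, unlike the ratios within a library, depends on the scaling. For L1MdTf_I this gain was 22455, 14771 and 17906.5 CPM per kb in Spocd1ΔSPIN1 replicates 1, 2 and 3. The gain of L1Md_Gf_5end was 54.9%, 51.2% and 53.0% of that of L1MdTf_I in the same libraries. With total counts, an alternative chosen after seeing the data, these shares were 55.8%, 52.4% and 54.3%. The share of the Gf 5′ end entry thus differed little between the mice under both scalings. The gain of L1MdTf_III was 25.4%, 20.8% and 20.1% of that of L1MdTf_I with TMM, but 18.0%, 7.06% and 7.44% with total counts, where replicate 1 stood well above the other mutants. The gain of L1MdGf_I was 6.57%, 14.3% and 12.1% of that of L1MdTf_I with TMM and 0.808%, 5.14% and 3.52% with total counts. The gain of L1MdGf_II was 9.60%, 25.1% and 22.6% with TMM and 3.75%, 16.9% and 14.7% with total counts. For the numbered Gf entries the share was lower in replicate 1 than in the other mutants under both scalings, while its size depended on the scaling. The gain of the Gf 5′ end entry per kb exceeded that of each numbered Gf entry in every mutant library under both.

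For each entry, the families whose counts kept the closest ratio to it were those with the smallest SD of the log2 count ratio over the 6 libraries. The measure says nothing of shared control. L1MdTf_I and L1MdTf_II were closest to each other (SD 0.023), followed for both by L1Md_Gf_5end (SD 0.17 and 0.16). L1Md_Gf_5end was likewise closest to L1MdTf_II and then to L1MdTf_I, neither of which is a Gf entry.

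L1MdTf_III was closest to IAPEYI, an internal sequence of an endogenous retrovirus of the IAP class (SD 0.054), whose count was 0.055 to 0.062 times that of L1MdTf_III in all 6 libraries. IAPEYI rose by 1.58 on the log2 scale (SE 0.14, Bonferroni-adjusted p = 0.00165 from edgeR), or 0.58 with total counts. RLTR10B2, an LTR family, came next (SD 0.27, log2 fold change 1.96). L1MdGf_I was closest to L1MdA_IV of the A group (SD 0.076), whose count was 0.89 to 1.04 times that of L1MdGf_I in all 6 libraries, and then to L1MdN_I (SD 0.14). The log2 fold changes of L1MdA_IV and L1MdN_I were 1.15 and 0.99 with TMM and 0.13 and −0.03 with total counts. L1MdGf_II was closest to L1MdA_III (SD 0.21, log2 fold change 1.89, 0.86 with total counts) and then to L1MdGf_I (SD 0.26). The numbered Gf entries thus each followed a LINE1 A entry more closely than any Tf entry.

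The 6 entries together took 8.32%, 8.03% and 8.76% of all counts in the libraries of wild-type mice and 34.2%, 24.2% and 26.5% in the Spocd1ΔSPIN1 libraries. Each mutant share was above each wild-type share, with replicate 1 the highest. The means were 8.37% ± 0.37 and 28.3% ± 5.24 (SD, n = 3 each), a difference of 19.9 percentage points (p = 0.1 in the exact permutation test, two-sided), or 17.0 without Spocd1ΔSPIN1 replicate 1. L1MdTf_I and L1MdTf_II alone accounted for 3.41%, 3.32% and 3.69% of counts in wild type and 26.0%, 17.0% and 19.1% in Spocd1ΔSPIN1 mice. L1MdGf_I and L1MdGf_II accounted for 2.80%, 2.65% and 2.87% in wild type and 3.23%, 4.09% and 4.04% in Spocd1ΔSPIN1 mice. Most of the added share was therefore that of the first pair of Tf entries. Of the counts of LINE1 families alone, the 6 entries held 18.5%, 19.1% and 18.9% in wild type and 56.7%, 35.4% and 38.1% in Spocd1ΔSPIN1 mice.

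**Figure D5:**
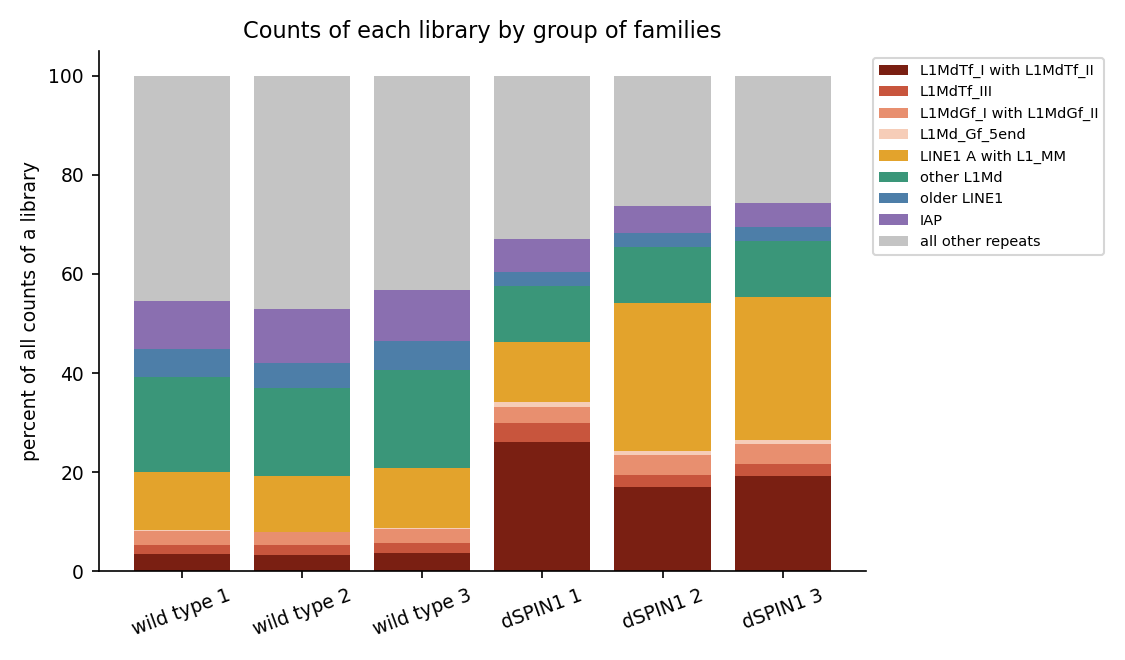
Percent of all counts of each library that fell on the Tf and Gf entries (red shades), the other LINE1 groups, IAP names and all other repeats, with 1 stacked bar per library (dSPIN1, Spocd1ΔSPIN1). Families named LX are among all other repeats. The Tf and Gf entries hold 8.03% to 8.76% in wild type and 24.2% to 34.2% in the mutants, and LINE1 A holds 12% in mutant replicate 1 against 29.8% and 28.9% in replicates 2 and 3.

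The most alike group, LINE1 A with L1_MM (8 families), took 11.7%, 11.2% and 12.2% of counts in the libraries of wild-type mice and 12%, 29.8% and 28.9% in the Spocd1ΔSPIN1 libraries. By share of counts, replicate 1, which had the highest Tf counts, was here within the wild-type range. In CPM, however, it was above every wild-type library in all 8 families. The counts of the Tf and Gf entries were 0.712, 0.719 and 0.719 times those of the LINE1 A group in wild type and 2.85, 0.811 and 0.917 times in Spocd1ΔSPIN1 mice. All mutant ratios were above the wild-type ratios, by a small margin in replicates 2 and 3. The difference of the log2 ratio was 0.84 (SD 0.0079 in wild type and 1.0 in Spocd1ΔSPIN1 mice, n = 3 each, p = 0.1 in the exact permutation test, two-sided), and it was 0.27 without Spocd1ΔSPIN1 replicate 1, so its size rests on that library. With medians of log2 counts over the families in place of sums it was 0.11.

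Of the 8 families of the LINE1 A group, 3 passed the threshold upwards (L1MdA_III, L1MdA_IV and L1MdA_V), beside 5.48% of all families tested, and 7 did so with the Wald test of DESeq2, beside 30 of 292 families, or 10.3%. With total counts, 0 of the 8 passed upwards in edgeR and 1, L1MdA_VI, passed downwards, beside 4 and 168 of all 292 families. Under this scaling L1MdA_V had a log2 fold change of −0.09. In all 8, each mutant CPM value lay above each wild-type value, as in the 6 Tf and Gf entries and beside 20.9% of all families. The log2 fold change was 3.18 for L1MdA_I, 3.04 for L1_MM and 2.46 for L1MdA_II, each above those of L1MdGf_II, L1MdTf_III and L1MdGf_I, but with SEs of 0.50, 0.47 and 0.40, and they did not pass in edgeR (adjusted p of 0.0693, 0.0653 and 0.0886). With total counts these values were 2.14, 2.001 and 1.42. The median over the 8 log2 fold changes was 1.52 with TMM, or 0.50 when scaled by total counts. L1MdA_VI and L1MdA_III had the highest wild-type levels of that group, 1832 ± 33.8 and 1815 ± 18.3 CPM per kb (SD, n = 3), close to those of the Tf entries. Their mutant levels were 2313 ± 192 and 6725 ± 2507 CPM per kb. L1MdA_III rose by 1.89 on the log2 scale (SE 0.27, Bonferroni-adjusted p = 0.0426 from edgeR), whereas L1MdA_VI had a log2 fold change of 0.34 with TMM and −0.68 with total counts, with adjusted p-values in edgeR of 1 and 0.0189. L1MdA_III was 2.11-fold, 4.41-fold and 4.59-fold above the wild-type mean in Spocd1ΔSPIN1 replicates 1, 2 and 3, lowest in replicate 1 as in the numbered Gf entries.

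Other L1Md families, which comprise the F, N and like groups, had 1 of 14 past the threshold upwards (L1MdN_I), a share near the 5.48% of all families. With the Wald test of DESeq2, 3 passed upwards, beside 30 of 292 families, or 10.3%. An unadjusted p under 0.05 in edgeR was found upwards in 7, beside 62 of all 292 families. In 8, each mutant value lay above each wild-type value, beside 20.9% of all families. The median log2 fold change was 0.17 with TMM. With total counts this median was −0.85, and 11 of the 14 passed downwards, where 168 of all 292 families did. L1MdF_III and L1MdF_I, of an older group with the highest wild-type levels on this list, had log2 fold changes of 0.24 and 0.52 with TMM and −0.78 and −0.49 with total counts. Neither passed with TMM (adjusted p of 1 and 0.0722 in edgeR), and L1MdF_III passed downwards with total counts (adjusted p of 0.00789, and 0.205 for L1MdF_I). Per kb, L1MdF_III was at 2612 ± 20.8 CPM in wild type (SD, n = 3), above each of the 6 entries, and at 3086 ± 128 in Spocd1ΔSPIN1 mice, below each of them in mean level. The log2 ratio of the Tf and Gf counts to those of the 14 families was −1.17 ± 0.030 in wild type and 1.30 ± 0.26 in Spocd1ΔSPIN1 mice (SD, n = 3 each), a difference of 2.47 (p = 0.1 in the exact permutation test, two-sided), or 2.33 without Spocd1ΔSPIN1 replicate 1 and 1.41 with medians of log2 counts in place of sums.

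Older LINE1 families are here the 12 with names starting with L1 that are on no list above. Of these 12, 0 passed the threshold in edgeR with TMM or with the Wald test of DESeq2, beside 24 and 47 of all 292 families. An unadjusted p under 0.05 in edgeR with TMM was found in 1 of the 12, upwards, beside 62 of all families upwards. Families named LX were not on this list. Of them, LX5b had a log2 fold change of −0.36 with TMM (unadjusted p = 0.0024 in edgeR). For LX2B, LX4, LX5, LX5c and LX9 it was −0.13, 0.06, −0.04, −0.33 and −0.20. With total counts, 10 of the 12 passed downwards in edgeR, where 168 of all 292 families did. Their log2 fold changes had a median of 0.0021 by TMM and −1.02 by total counts, close to the median of all families under each scaling. L1_Mus1_3end and L1_Mus2_3end, the most abundant of them per kb in wild type, had log2 fold changes of 0.09 and −0.03 with TMM and −0.92 and −1.04 with total counts, and passed only in the latter (adjusted p of 0.000536 and 0.000136 in edgeR). The log2 ratio of the Tf and Gf counts to those of older LINE1 families was 0.58 ± 0.051 in wild type and 3.32 ± 0.28 in Spocd1ΔSPIN1 mice (SD, n = 3 each), a difference of 2.74 (p = 0.1 in the exact permutation test, two-sided), or 2.58 without Spocd1ΔSPIN1 replicate 1 and 1.69 with medians of log2 counts in place of sums.

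Among the 32 families with names holding IAP, the other retrotransposon class usually studied with this pathway, 3 passed the threshold upwards (IAPEY5_I, IAPEYI and IAP5-Mm_I) and 1 downwards (IAPEY3_LTR). Of all 292 families tested, 16, or 5.48%, passed upwards and 8 downwards. With the Wald test of DESeq2, 6 passed upwards and 2 downwards, beside 30 and 17 of all 292 families. Each mutant value lay above each wild-type value in 16, beside 20.9% of all families. The median log2 fold change of the IAP families, 0.31 by TMM, became −0.70 by total counts. IAPEY5_I rose by 2.04 on the log2 scale (SE 0.28, Bonferroni-adjusted p = 0.0311 from edgeR), above the values of L1MdGf_II, L1MdTf_III and L1MdGf_I, and had 1.04 with total counts. IAP5-Mm_I had 0.80 with TMM and −0.21 with total counts, and IAPEY3_LTR −1.80 and −2.82. IAPLTR1a_I_MM and IAPLTR3 had the highest wild-type levels per kb of this list, with log2 fold changes of 0.09 and −0.68 with TMM (adjusted p of 1 in edgeR for both) and −0.92 and −1.69 with total counts (adjusted p of 0.0107 and 0.00913). In all, 13 of the 32 passed downwards with total counts, where 168 of all 292 families did.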

How the data were processed

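Reads from 6 testis RNA-seq libraries had been processed by the authors, who deposited raw counts per repeat family with each family's length. The submitters' processing notes name cutadapt 1.18, Bowtie2 2.4.2 and the mouse build mm10, and the counting rule is not given in the sources used here. A row named for the aligner, with 0 counts in every library, was left out. Libraries were assigned to groups by column names that match the labels.

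Of 363 families, 71 with low counts were removed by filterByExpr, and 292 were tested two-sided with glmQLFit and glmQLFTest of edgeR 4.0.16 under R 4.3.3 (TMM factors, no covariate, Bonferroni adjustment, threshold 0.05). The fits were tested on simulated counts. Standard errors were derived from the F statistic. Shares and ratios were compared by exact two-sided permutation tests (scipy 1.17.1), where 3 against 3 cannot give a p under 0.1. P-values and SDs rest on separate mice, and counting errors cover counting only. Replicates of a group differed by more than sampling noise, with chi-square per degree of freedom of at least 8.64.

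The entries and lists were chosen with earlier results of these data known. Named families are the 6 entries, for each the 2 with the smallest SD of the log2 count ratio, and for each list the 2 with the highest wild-type count per kb, while other called families of these lists, MMERVK10C, L1MdA_I, L1_MM and L1MdA_II were chosen after their values were seen. Alternatives were the Wald test of DESeq2 1.42.0, its size factors used in edgeR, scaling by total counts and TMM factors without families whose names start with L1. Others were no filter, at least 10 counts in every library, L1MdTf_I and L1MdTf_II summed, and Benjamini-Hochberg adjustment. The last were a replicate block, each library left out, 0.5 added to counts, and other sums, references or medians for the shares and ratios. The ratio of the Gf 5′ end entry to the numbered Gf entries was planned with their mean length under the summed counts, and is given over their summed lengths, chosen after seeing the data, which shifts every library equally and leaves the difference and its p the same. Figures were drawn with matplotlib 3.10.9.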

Additional observations from a re-analysis of the deposited data

How the results depend on the processing

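The number of the 6 entries called higher was 6 with DESeq2's Wald test (47 of 292 families called in all) and its size factors in edgeR (27). It was 6 as well with TMM factors without families whose names start with L1 (31). It was also 6 with no filter (30 of 359), at least 10 counts in every library (24 of 267) and Benjamini-Hochberg adjustment (92 of 292). With L1MdTf_I and L1MdTf_II summed into 1 family, the sum and the other 4 entries passed (23 of 291 families called, and the sum stands for both in the values that follow). With each library left out in turn, between 5 and 6 entries were called, and with total counts 3. Of 84 log2 fold changes of single entries under 14 alternatives, 80 stayed past the threshold and 0 changed direction. With total counts, L1MdTf_III, L1MdGf_I and L1MdGf_II had 0.55, 0.21 and 0.66 and did not pass. Without single libraries, L1MdTf_III had between 1.35 and 1.68. The calls over all families were 24 in the main analysis and 172 with total counts, and with a library left out they were between 14 and 28, lowest without wild-type replicates 3 (14) and 2 (15). The cause of these differences was not tested.

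The genotypes share replicate numbers 1, 2 and 3, but same-numbered libraries did not deviate together over the 292 families (correlations of 0.078, 0.024 and −0.12), and not every library correlated best with its own number. With a replicate block, 6 entries were called, with log2 fold changes from 1.23 for L1MdGf_I to 3.86 for L1Md_Gf_5end, and 14 families in all. The paired mean difference of a share or ratio equals the unpaired difference.

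Of 90 values of shares and ratios under alternatives, 85 moved by less than 1 SD between replicates and 0 changed sign. This SD was the root mean square of the SDs of both genotypes. The tally cannot show robustness, because values with a replicate block or over summed lengths equal the main ones by construction. A small constant added to the counts could hardly move them. The SD also includes Spocd1ΔSPIN1 replicate 1. The LINE1 A ratio thus counts as unmoved without that library, although its log2 difference fell from 0.84 to 0.27. The difference in the share of the 6 entries was 24.6 percentage points of LINE1 counts and 13.4 with L1MdTf_II left out. With medians of log2 counts in place of sums, the difference in the log2 ratio was 0.11 to LINE1 A, 1.41 to other L1Md and 1.69 to older LINE1 families, and the cause was not tested.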
